A study of Homo sapiens with 9 samples.

Results

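The genes of positive transcription elongation factor b (P-TEFb), of its inhibitory 7SK particle and of the BET family were examined in A375R cells: HEXIM1, LARP7, MEPCE, CDK9, CCNT1, CCNT2, AFF4, BRD2 and BRD3. They were taken by symbol, 9 of the 62710 genes of the deposited table, and 8 of them passed the filter of a mean of at least 10 normalized counts over the 9 libraries. MEPCE was listed at 0 in every library. A375R is a line of human A375 melanoma cells that is resistant to the BRAF inhibitor PLX4032 (a vemurafenib analog) and is cultured with it. The cells received DMSO, or for 2 h either VHL-r or R4VPL3-1 at 10 µM, with 3 libraries per treatment. R4VPL3-1 is a full PROTAC-like molecule made to bring the ubiquitin ligase RNF4 to the VHL ligase, whereas VHL-r holds the VHL-binding part only. The sample titles of the control libraries say wild type, with neither a dose nor a time, while the deposited table gives 2 h in the column names of controls 2 and 3. They are called DMSO as in the series' design. Each library was made from poly(A) RNA of a bulk culture of a single line, so fewer cells and less RNA per cell cannot be told apart.

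P-TEFb is the kinase CDK9 with a T-type cyclin, CCNT1 or CCNT2, and it releases paused RNA polymerase II into elongation by phosphorylating the polymerase and its pausing factors. A part of it is held inactive by HEXIM1 on the 7SK RNA, which MEPCE caps and LARP7 binds. BET proteins such as BRD2 and BRD3 bind acetylated histones, and AFF4 is the scaffold of the super elongation complex, which carries P-TEFb to genes. The HEXIM1 transcript is known to rise in many cell lines when BET bromodomains are inhibited.

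The libraries held between 26435568 and 32085626 reads assigned to genes, and a normalized count is the number of reads of a gene divided by the library's size factor, which was between 0.934 and 1.10. The melanocyte lineage genes SOX10 (7900 to 17935 normalized counts over the 9 libraries) and DCT (914 to 1782) were present, MLANA was listed at 0 and TYR reached at most 2.14. A listed 0 need not mean that a transcript was absent, since HNRNPA1, a gene that most cells use, was also listed at 0 in every library. SOX10 had means of 17547 in DMSO, 10200 in VHL-r and 8405 in R4VPL3-1. The markers of other cell types, 8 genes in all, were at most 24.2 in any library, apart from KRT14 at 224 to 365, with means of 347, 287 and 251 in the same order. The part of SOX10 and KRT14 in the results on the elongation genes was not tested.

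HEXIM1, BRD2, AFF4 and CCNT1 rose in both treatments. For the first 3, the 250 bases before the start site of the MANE transcript are shown. They are as RefSeq gives them on GRCh38.p14, 5′ to 3′ on the strand of the gene. The windows are chr17:45148225-45148474 on the plus strand, chr6:32968344-32968593 on the plus strand and chr5:132963635-132963884 on the minus strand, and none of them overlaps an annotated UTR. The window of CCNT1 at this start is not printed because it lies wholly in annotated UTR. Capitals mark the TATA box letters TATAAA in the window of HEXIM1 and the E-box letters CACGTG in that of AFF4.
HEXIM1: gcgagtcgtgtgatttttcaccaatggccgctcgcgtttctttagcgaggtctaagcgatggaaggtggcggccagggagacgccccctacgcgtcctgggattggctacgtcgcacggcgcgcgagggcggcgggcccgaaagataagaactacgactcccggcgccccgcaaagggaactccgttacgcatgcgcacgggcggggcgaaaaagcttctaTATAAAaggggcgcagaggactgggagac
BRD2: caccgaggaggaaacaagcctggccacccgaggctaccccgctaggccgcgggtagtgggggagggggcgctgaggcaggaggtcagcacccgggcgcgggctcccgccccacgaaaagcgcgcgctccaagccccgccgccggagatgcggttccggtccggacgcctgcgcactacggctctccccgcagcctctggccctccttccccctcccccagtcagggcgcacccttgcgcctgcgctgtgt
AFF4: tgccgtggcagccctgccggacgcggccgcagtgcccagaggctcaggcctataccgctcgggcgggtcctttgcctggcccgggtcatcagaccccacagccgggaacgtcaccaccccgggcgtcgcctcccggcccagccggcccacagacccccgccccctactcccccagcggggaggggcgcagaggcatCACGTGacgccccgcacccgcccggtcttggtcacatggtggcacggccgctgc
The TATA box of HEXIM1 lay at bases -29 to -24 from the start, and 10.72% of the 35116 windows of this length held these letters on either strand. The E-box of AFF4 lay at bases -54 to -49, and 6.34% of the windows held one. The window of BRD2 held none of the letters searched, which also included TGACGTCA (CRE, in 1.65% of the windows), TGACTCA (AP-1, 4.20%), GAANNTTC or TTCNNGAA (heat shock element core, 11.58%) and TGACNNNGC (antioxidant response element core, 10.91%). Among the other members, CACGTG was present before a start site of CCNT1 and of MEPCE, TTCNNGAA before the same start of CCNT1, TGACGTCA before LARP7 and TGACNNNGC before MEPCE. BRD2 and CCNT1 have further start sites, and the windows before those held none of the letters searched. The matches above describe the letters and do not show that a factor bound there.

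Against DMSO, VHL-r raised HEXIM1, BRD2, CCNT1 and AFF4 and lowered CDK9. R4VPL3-1 raised the same 4 genes and also BRD3 and CCNT2, and lowered CDK9. A gene was called where limma on log2(normalized count + 1) gave a p of at most 0.05 after Benjamini-Hochberg adjustment over 15230 tested genes. In VHL-r against DMSO 4 of 8 tested members were called higher, where 10.3% of all genes tested were, and 1 was called lower, where 9.51% were. In R4VPL3-1 against DMSO 6 were called higher, against 13.1% of all genes, and 1 lower, against 11.8%. The median log2 fold change of the 8 members was 0.23 in each comparison, and that of all genes was -0.0045 and -0.0063. Both comparisons use the same 3 DMSO libraries, so they are not independent of each other. In 7 of the 8 members, LARP7 being the exception, the libraries of each treatment did not overlap those of DMSO. How many of all genes tested were separated in this way was not counted, so this count has no background beside it.

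**Figure D1:**
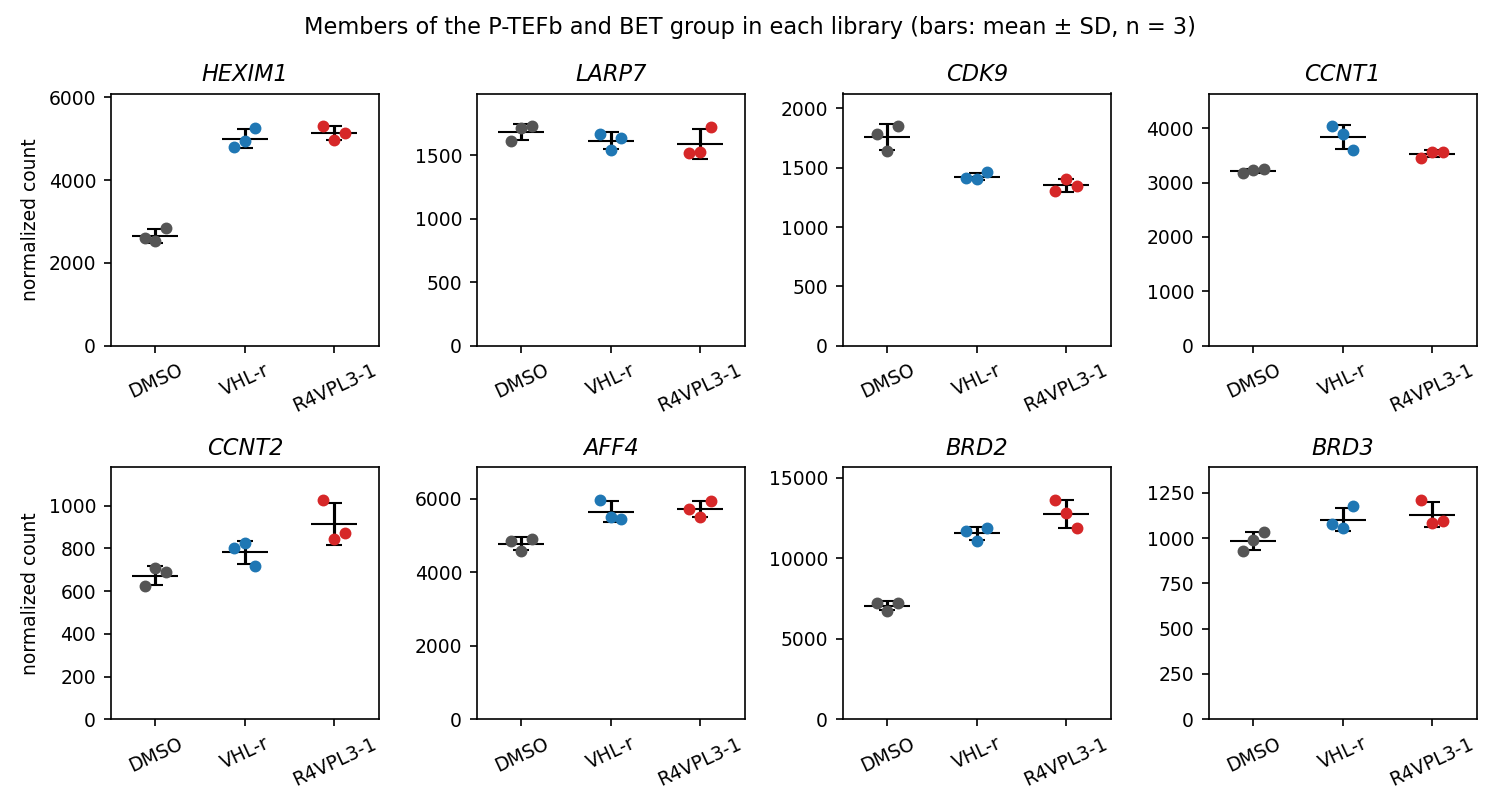
Normalized counts (vertical axes, from 0) of the 8 tested members in the 9 libraries, with points for single libraries and bars for the mean ± SD of 3. HEXIM1 lay between 2531 and 2848 in DMSO and between 4808 and 5299 with either compound, while CDK9 lay at 1640.1 to 1848 in DMSO and at 1303 to 1462 with either compound.

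HEXIM1 (ENSG00000186834, GRCh38 chromosome 17 from 45148475 to 45152099, plus strand) is a gene of 1 exon whose protein binds 7SK RNA and inhibits CDK9. It had 2597, 2531 and 2848 normalized counts in DMSO replicates 1, 2 and 3, 4808, 4942 and 5269.6 in VHL-r, and 5299, 4978 and 5144 in R4VPL3-1. Every treated library was above every DMSO library, and the ranges of the treatments overlapped each other. The means were 2659 ± 167 (SD, n = 3), 5007 ± 237 and 5141 ± 160.3, so HEXIM1 was 1.88 times as high in VHL-r and 1.93 times as high in R4VPL3-1. On the log2 scale these rises were 0.91 (SE 0.05, limma adjusted p = 6.11e-11) and 0.95 (SE 0.05, limma adjusted p = 1.27e-11). A larger rise was measured for 370 of the tested genes in VHL-r and for 464 in R4VPL3-1.

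LARP7 (ENSG00000174720, chromosome 4 from 112637077 to 112657696, plus strand), which binds the 3′ end of 7SK RNA and stabilizes it, had 1613, 1712 and 1728 normalized counts in DMSO. The values were 1667, 1539 and 1637 in VHL-r and 1516, 1529 and 1723 in R4VPL3-1. All 3 groups overlapped. Its log2 fold change was -0.06 (95% interval -0.18 to 0.06, limma adjusted p = 0.537) for VHL-r and -0.09 (-0.21 to 0.04, limma adjusted p = 0.325) for R4VPL3-1.

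MEPCE (ENSG00000146834, chromosome 7 from 100428322 to 100434126, plus strand), the methyltransferase that caps 7SK RNA, gave no value that could be compared. In GENCODE 44, exons of a gene on the same strand (ENSG00000289690, from 100397577 to 100434107) cover 61.3% of its exon bases and 71.83% of its MANE transcript. That gene was listed at 0 in every library as well. The authors' counting by htseq-count leaves out reads that lie on exons of more than 1 gene of the same strand. The exons of MEPCE that the other gene does not cover also gave no reads, and why was not tested, so the 0 is not a measurement of its transcript. RN7SK, the 7SK RNA itself, was listed at 0 in all of these poly(A) libraries too.

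CDK9 (ENSG00000136807, chromosome 9 from 127785679 to 127790792, plus strand), the kinase of P-TEFb, was the member that fell. Its normalized counts were 1786, 1640.1 and 1848 in DMSO, 1414, 1401 and 1462 in VHL-r, and 1303, 1407 and 1346 in R4VPL3-1. Every treated library was below every DMSO library, and the ranges of the treatments overlapped. CDK9 fell by 0.30 on the log2 scale in VHL-r (SE 0.06, limma adjusted p = 0.000506), to 0.811 times the DMSO mean of 1758 ± 107. It fell by 0.38 in R4VPL3-1 (SE 0.06, limma adjusted p = 3.22e-05), to 0.769 times that mean.

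The cyclins moved the other way. CCNT1 (ENSG00000129315, chromosome 12 from 48688458 to 48716998, minus strand), the more abundant cyclin partner of CDK9 here, had 3176, 3224 and 3251 normalized counts in DMSO, 4032, 3896 and 3604 in VHL-r, and 3457, 3569 and 3559 in R4VPL3-1. No pair of treatments overlapped, and VHL-r was the highest. CCNT1 rose by 0.26 on the log2 scale in VHL-r (SE 0.05, limma adjusted p = 0.000435). In R4VPL3-1 the rise was 0.13 (SE 0.05, limma adjusted p = 0.0439). Leaving out any single library of DMSO or R4VPL3-1 ended this call, with limma adjusted p from 0.0628 to 0.119.

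CCNT2 (ENSG00000082258, chromosome 2 from 134918235 to 134959342, plus strand), the alternative cyclin partner, had 625, 706 and 688 normalized counts in DMSO, 801, 825 and 719 in VHL-r, and 1027, 843 and 870.4 in R4VPL3-1. The 3 treatments did not overlap, with R4VPL3-1 the highest and its replicate 1 above the other two. CCNT2 rose by 0.44 on the log2 scale in R4VPL3-1 (SE 0.08, limma adjusted p = 0.000292), a fitted fold of 1.35 (95% interval 1.21 to 1.52). In VHL-r its log2 fold change was 0.21 (95% interval 0.05 to 0.38) and did not pass, although it passed without VHL-r replicate 3, at 0.27 and an adjusted p of 0.029 by limma.

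AFF4 (ENSG00000072364, chromosome 5 from 132875395 to 132963634, minus strand) has 21 exons over 88240 bases. Its normalized counts were 4854.5, 4568 and 4912 in DMSO, 5967, 5509.7 and 5451 in VHL-r, and 5708, 5489 and 5926 in R4VPL3-1. All treated libraries were above all DMSO libraries, and the treatments overlapped each other. AFF4 was 1.18 and 1.19 times as high as in DMSO, or higher by 0.24 (SE 0.05, limma adjusted p = 0.000931) and 0.26 (SE 0.05, limma adjusted p = 0.00037) on the log2 scale.

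BRD2 (ENSG00000204256, chromosome 6 from 32968594 to 32981505, plus strand) was the BET gene with the larger response. It had 7194, 6725 and 7253 normalized counts in DMSO, 11668, 11096 and 11868 in VHL-r, and 13626, 12782 and 11907 in R4VPL3-1. The treated libraries were far above DMSO, and the lowest R4VPL3-1 library, replicate 3, was just above the highest VHL-r library. BRD2 rose by 0.71 on the log2 scale in VHL-r (SE 0.05, limma adjusted p = 1.33e-09) and by 0.85 in R4VPL3-1 (SE 0.05, limma adjusted p = 3.93e-11), which is 1.64 and 1.81 times the DMSO mean of 7057 ± 289. A larger rise was measured for 614 and 579 of the tested genes.

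BRD3 (ENSG00000169925, chromosome 9 from 134030305 to 134068535, minus strand) had 929, 989 and 1031 normalized counts in DMSO, 1076, 1053 and 1176 in VHL-r, and 1210.1, 1083 and 1095 in R4VPL3-1. The DMSO libraries were the lowest, by a small gap, and the treatments overlapped each other. Its log2 fold change was 0.16 in VHL-r (95% interval 0.03 to 0.30, limma adjusted p = 0.0866), which did not pass, and it rose by 0.20 in R4VPL3-1 (SE 0.07, limma adjusted p = 0.0281). The latter call was lost without DMSO replicate 1 (adjusted p = 0.131), DMSO replicate 2 (0.0666) or R4VPL3-1 replicate 1 (0.162).

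**Figure D2:**
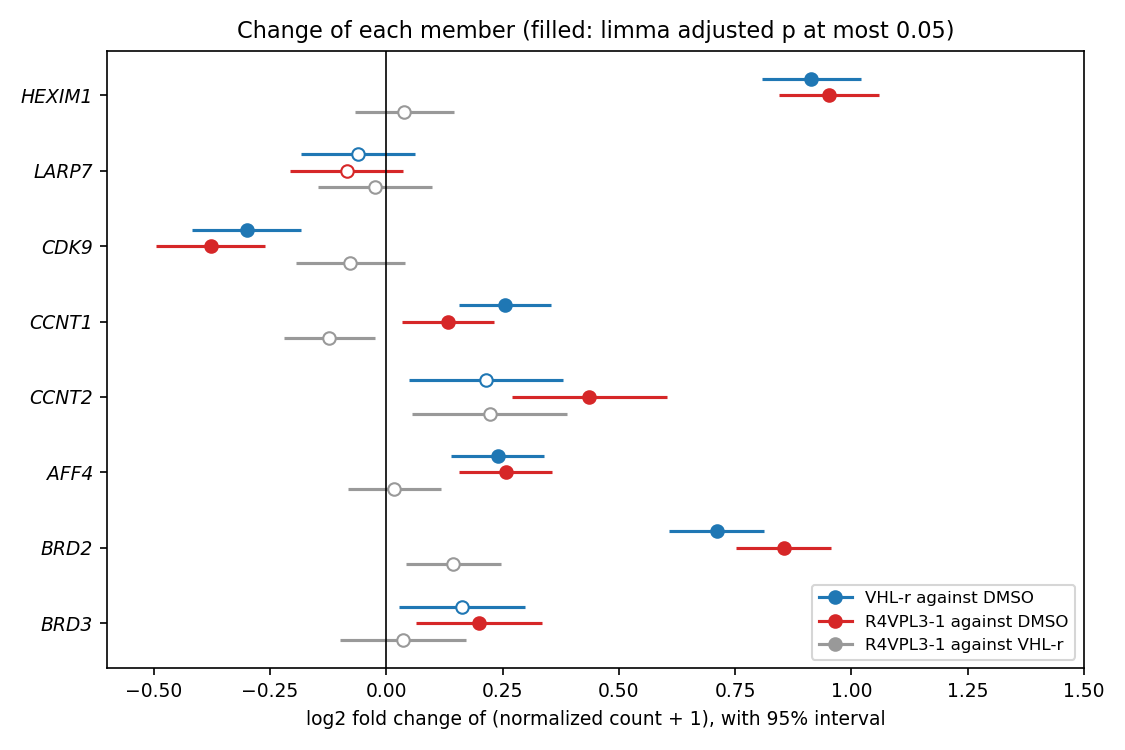
Log2 fold change of (normalized count + 1) with its 95% interval (horizontal axis) for the 8 tested members in the 3 comparisons, filled where the limma adjusted p is at most 0.05. Against DMSO the rises of HEXIM1 and BRD2 lie at 0.71 to 0.95 and the fall of CDK9 at -0.38 to -0.30, and all 8 points of R4VPL3-1 against VHL-r are open.

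R4VPL3-1 and VHL-r, which share the VHL-binding moiety, were compared at the same dose and time. None of the 8 tested members was called, where 1.14% of all genes passed as higher in R4VPL3-1 and 0.729% as lower. At an unadjusted p under 0.05, limma gave 3 of the 8 members (BRD2, CCNT1 and CCNT2) and 1508 of all genes, and edgeR and DESeq2 also called 0 members. The median log2 fold change of the members was 0.03, beside -0.0056 for all genes. For HEXIM1 the difference was 0.04 with a 95% interval of -0.07 to 0.15, for AFF4 0.02 (-0.08 to 0.12), for BRD3 0.04 (-0.10 to 0.17), for LARP7 -0.02 (-0.15 to 0.10) and for CDK9 -0.08 (-0.19 to 0.04).

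The libraries of R4VPL3-1 and VHL-r did not overlap for BRD2, CCNT1 and CCNT2. None of these members was called in the fit of all libraries. How many of all genes tested were separated in this way was not counted. BRD2 was higher in R4VPL3-1 by 0.14 on the log2 scale (95% interval 0.04 to 0.25, limma adjusted p = 0.21), and without R4VPL3-1 replicate 3 it was higher by 0.19 and called (limma adjusted p = 0.036). CCNT2 was higher by 0.22 (0.06 to 0.39, limma adjusted p = 0.252), and CCNT1 differed by -0.12 (-0.22 to -0.02, limma adjusted p = 0.312). The smallest p that 3 libraries against 3 allow in an exact permutation test is 0.1, so no such test is given.

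Levels can be set beside each other only per length. Per kilobase of the MANE transcript, BRD2 was the highest in DMSO at 1424 ± 58.4 normalized counts (SD, n = 3), followed by LARP7 at 799 ± 29.6, HEXIM1 at 734 ± 46.2 and CDK9 at 708 ± 42.9. AFF4 was at 501 ± 19.3, CCNT1 at 474 ± 5.57, BRD3 at 174 ± 9.08 and CCNT2 at 97.2 ± 6.18. The libraries of LARP7 and HEXIM1 overlapped, as did those of HEXIM1 and CDK9. With VHL-r HEXIM1 was at 1381 ± 65.4 per kilobase and with R4VPL3-1 at 1418 ± 44.2, second to BRD2 at 2329 ± 80.8 and 2577 ± 173. This order depends on the length used. Over all annotated exons, LARP7 was at 208 per kilobase in DMSO, HEXIM1 (734) and BRD2 (785) overlapped in DMSO, HEXIM1 was above BRD2 in VHL-r (1381 against 1283), and both overlapped in R4VPL3-1 (1418 against 1419.9).

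The balance of the inhibitor to the kinase was looked at after the values had been seen. The level of HEXIM1 over that of CDK9, both per kilobase of the MANE transcript, was 0.996, 1.06 and 1.06 in DMSO, 2.33, 2.42 and 2.47 in VHL-r, and 2.79, 2.42 and 2.62 in R4VPL3-1. The treated libraries were all above DMSO and overlapped each other. The ratio of CCNT1 to CDK9 had means of 0.671 ± 0.0417 (SD, n = 3), 0.987 ± 0.075 and 0.955 ± 0.0238 in the same order, and that of CCNT2 to CCNT1 0.205 ± 0.0112, 0.199 ± 0.0072 and 0.254 ± 0.0324. The size of such ratios depends on the length used. Over all annotated exons, HEXIM1 was at 734 and CDK9 at 585 per kilobase in DMSO. Ratios of transcripts do not give the ratio of the proteins.

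The other genes of the elongation machinery were called higher in a share near that of all genes tested. Of 70 such genes in 6 lists, 64 were tested; 7 were called higher and 3 lower in VHL-r against DMSO (median log2 fold change -0.008), and 8 higher and 5 lower in R4VPL3-1 against DMSO (median -0.03). These are 10.9% higher and 4.69% lower for VHL-r, where 10.3% and 9.51% of all genes were called, and 12.5% and 7.81% for R4VPL3-1, where 13.1% and 11.8% were. The counts of lower genes rested on single libraries: in VHL-r 0 or 1 was called without any single DMSO library, VHL-r replicate 1 or VHL-r replicate 3, and in R4VPL3-1 3 without DMSO replicate 1 or 2. Without R4VPL3-1 replicate 1 the higher genes in R4VPL3-1 numbered 5. POLR2A, the largest subunit of RNA polymerase II, stood apart from the other 11 subunits, of which none was called. It had 8489, 7258 and 8081 normalized counts in DMSO, 14212, 12456 and 13517 in VHL-r, and 14878, 14218 and 12851 in R4VPL3-1. Its rises of 0.75 (SE 0.06, limma adjusted p = 1.12e-08) and 0.82 (SE 0.06, limma adjusted p = 1.97e-09) on the log2 scale passed in all 17 alternatives.

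Among the other subunits of the super elongation complex, 2 of 8 tested genes were called higher and 2 lower in each treatment. AFF1, the paralog of AFF4, rose by 0.41 in VHL-r (limma adjusted p = 0.000217) and by 0.28 in R4VPL3-1 (limma adjusted p = 0.00541), and ELL2 rose by 0.29 in VHL-r (limma adjusted p = 0.00423). ELL, the elongation factor that gives the ELL family its name, fell by 0.23 in VHL-r (limma adjusted p = 0.0221) and by 0.29 in R4VPL3-1 (limma adjusted p = 0.0045). The former call was lost without DMSO replicate 1 (0.162), DMSO replicate 2 (0.0539), VHL-r replicate 1 (0.0542) or VHL-r replicate 3 (0.0674), and the latter held in all 17 alternatives. EAF1, an ELL-associated factor named after its values were seen, fell by 0.14 in VHL-r (limma adjusted p = 0.0458), a call lost without any single DMSO or VHL-r library (0.0737 to 0.161), and by 0.22 in R4VPL3-1 (limma adjusted p = 0.00196), which held in all 17. EAF2, its paralog, rose by 0.51 in R4VPL3-1 (limma adjusted p = 0.0217), a call that was lost without DMSO replicate 1 (0.138) or R4VPL3-1 replicate 1 (0.0848). Of the 12 tested regulators of 7SK and P-TEFb, 1 was called in VHL-r: HEXIM2, the paralog of HEXIM1, fell by 0.39 (limma adjusted p = 0.026), and the call was lost without DMSO replicate 3 (0.111) or VHL-r replicate 1 (0.137). In R4VPL3-1, 1 was called higher and 2 lower. JMJD6, a dioxygenase, rose by 0.29 (limma adjusted p = 0.00138), and the splicing factor SRSF2 fell by 0.14 (limma adjusted p = 0.0129), a call lost without DMSO replicate 1 (0.0503) or DMSO replicate 2 (0.0614). HMGA1, named after its values were seen, fell by 0.13 (limma adjusted p = 0.0429), a call lost in 7 of 17 alternatives. These included no filter (0.0861), TMM rescaling (0.0529), edgeR (0.055) and the fit without DMSO replicate 1 (0.196).

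None of the 5 tested subunits of the pausing factors DSIF and NELF was called in either treatment. Of 15 genes of the PAF1 complex and further elongation factors, 1 was called higher in each treatment: CTR9, a subunit of the PAF1 complex, rose by 0.38 in VHL-r (limma adjusted p = 4.13e-06) and by 0.28 in R4VPL3-1 (limma adjusted p = 0.000125). ELOA, the elongin A subunit, fell by 0.20 in R4VPL3-1 against DMSO (limma adjusted p = 0.000946) and was the only gene of the 6 lists called between the compounds, lower in R4VPL3-1 by -0.16 with an adjusted p of 0.0488 by limma. That call was lost when any single library of R4VPL3-1 or VHL-r was left out, with adjusted p from 0.0678 to 0.237, and by edgeR (0.0537). Of 12 other transcriptional kinases and phosphatases of the polymerase tail, 3 rose in each treatment, among them the Mediator kinase CDK8 by 0.28 (limma adjusted p = 0.00176) and 0.26 (limma adjusted p = 0.00232). RPAP2, a phosphatase of the polymerase tail, rose by 0.26 (limma adjusted p = 0.0124) and 0.25 (limma adjusted p = 0.0148). Its call was lost in VHL-r without DMSO replicate 1 (0.0755) or VHL-r replicate 1 (0.0751), and in R4VPL3-1 without DMSO replicate 1 (0.0861) or R4VPL3-1 replicate 1 (0.102). CDK13, named after its values were seen, rose by 0.16 (limma adjusted p = 0.0332) and 0.18 (limma adjusted p = 0.0167). In VHL-r this call was lost in 5 of 17 alternatives. In R4VPL3-1 it was lost without DMSO replicate 2 (0.139) or R4VPL3-1 replicate 1 (0.0866).

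**Figure D3:**
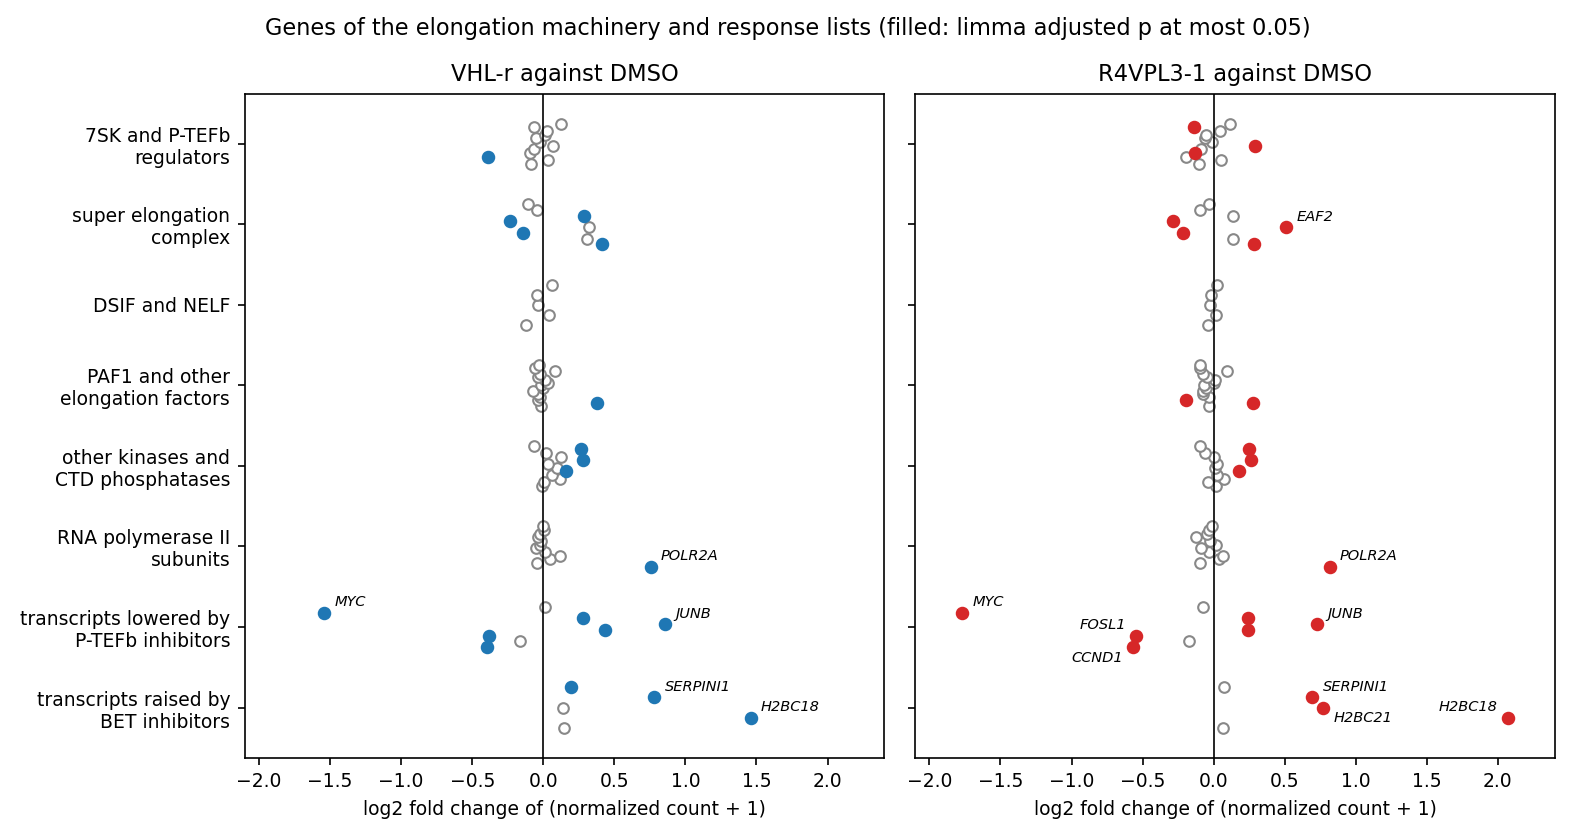
Log2 fold change of (normalized count + 1) (horizontal axis) of each tested gene of the 8 lists (rows) against DMSO, for VHL-r on the left and R4VPL3-1 on the right, filled where the limma adjusted p is at most 0.05. Among the machinery genes POLR2A lies farthest out, at 0.75 and 0.82, and in the response lists MYC lies at -1.54 and -1.77.

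Short-lived transcripts that P-TEFb inhibitors are known to lower did not move together. Of 8, 3 were called higher and 3 lower in each treatment, with medians of -0.08 and -0.12. Among all genes tested, 10.3% were called higher and 9.51% lower in VHL-r, and 13.1% and 11.8% in R4VPL3-1. MYC had 1253, 1254 and 1049 normalized counts in DMSO, 379, 429.6 and 408 in VHL-r, and 320.3, 401 and 321 in R4VPL3-1, with no overlap between DMSO and either treatment. Its log2 fold changes were -1.54 (SE 0.09, limma adjusted p = 1.86e-10) and -1.77 (SE 0.09, limma adjusted p = 9.8e-12). JUNB, an AP-1 subunit, rose by 0.86 (limma adjusted p = 1.11e-07) and 0.73 (limma adjusted p = 6.65e-07) instead.

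Of 5 transcripts besides HEXIM1 that BET bromodomain inhibitors are known to raise, 3 were called higher in each treatment and none lower. Their medians were 0.20 and 0.69. Among all genes tested, 10.3% were called higher in VHL-r and 13.1% in R4VPL3-1. The counts of these 5 transcripts rested on low genes and single libraries. In VHL-r, 1 was called without DMSO replicate 1, DMSO replicate 2 or VHL-r replicate 3. In R4VPL3-1, 1 was called without DMSO replicate 2 or R4VPL3-1 replicate 2. Among genes with a mean of at least 50, 1 was called in VHL-r and 0 in R4VPL3-1. SERPINI1, a serpin, had means of 29.3 ± 3.26 (SD, n = 3) in DMSO, 50.9 ± 3.51 in VHL-r and 48.0 ± 5.42 in R4VPL3-1, and passed in both (limma adjusted p = 0.00748 and 0.0134), the latter not without DMSO replicate 2 (0.064), R4VPL3-1 replicate 1 (0.0533) or R4VPL3-1 replicate 2 (0.0561). The histone gene H2BC18 was called on few reads, with 2.72, 2.95 and 7.10 normalized counts in DMSO, 11.01, 11.6 and 15.4 in VHL-r, and 27.1, 25.9 and 10.7 in R4VPL3-1 (limma adjusted p = 0.0163 and 0.000812). H2BC18 had a mean of 4.26 in DMSO, so it passed the filter of a mean of at least 10 only through the treated libraries. Its calls, and the counts of 3 that include it, therefore depend in part on the filter. Its call in VHL-r was lost with no filter (0.0526), and without DMSO replicate 1 (0.0644), DMSO replicate 2 (0.0622) or VHL-r replicate 3 (0.0636). H2BC21, another histone gene, passed in R4VPL3-1 alone among the comparisons with DMSO, at 0.77 (limma adjusted p = 0.0191), and not without DMSO replicate 2 (0.116) or R4VPL3-1 replicate 2 (0.101); its difference between the compounds was 0.63 (limma adjusted p = 0.281).

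Across the 9 libraries, the genes whose log2 levels followed HEXIM1 most closely were ERN1 (Pearson's r = 0.998), FAM53C (0.998), CSRNP2 (0.995), PDE4DIP (0.995) and CNNM4 (0.994). ERN1 had means of 179, 494 and 519 normalized counts in DMSO, VHL-r and R4VPL3-1. For BRD2 the closest were MAT2A (0.996), POLG (0.994), NXF1 (0.992), WSB1 (0.992) and NOTCH1 (0.991), of which NXF1 had means of 2659.9, 5309.9 and 5695. The 9 points share 3 treatments, so such values describe mainly the step from DMSO to either compound.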

How the data were processed

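RNA of 9 libraries of A375R cells was measured by poly(A), strand-specific single-read sequencing. As the methods state, the authors aligned reads to GRCh38 by STAR, counted them per gene by htseq-count in reverse mode and normalized them by DESeq2 1.36.0. The authors deposited a normalized signal, reads divided by the library's size factor, for 62710 genes. Values were whole multiples of 1 read in each library (100% within 0.05 reads), so reads were recovered for edgeR and DESeq2.

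Because the deposited values are not counts, limma 3.58.1 (R 4.3.3, trend option) was fitted to log2(value + 1) of the 15230 genes whose mean reached 10, with all 9 libraries in a single-factor model as in the study. This scale understates the change of low genes. The calling threshold was 0.05 on p adjusted over all tested genes (Benjamini-Hochberg). Scripts were tested on simulated data.

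All 9 members were named. Of each list, named genes are those called between the compounds and those with the 2 largest changes against DMSO among called genes, and the 5 closest genes were named for HEXIM1 and BRD2. RN7SK and the cell type markers are given beside them, and 1 further list is not reported here. The members, lists and tests were chosen with earlier results of these data known.

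Positions, exons and lengths came from GENCODE 44, where the positions of all 9 members matched the deposited table, and upstream windows from RefSeq. At most 0.97% of the 100-base windows of a tested member occurred in another gene. The study calls the libraries biological repeats, which nothing here can check, so p-values measure the spread between these libraries. Counting error is a part of that spread, and its share was not estimated for the members. Alternatives were pseudocounts of 0.1 and 5, no filter, a mean of at least 50, TMM and upper quartile rescaling, a replicate block, the robust option of limma, tests of the recovered reads by edgeR 4.0.16 or DESeq2 1.42.0, only the 6 libraries compared, and each library left out.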

Additional observations from a re-analysis of the deposited data

How the results depend on the processing

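The calls of HEXIM1, BRD2, CDK9 and AFF4 against DMSO kept their direction and passed in all 17 alternatives run for each. HEXIM1 ranged from 0.88 to 0.96 in VHL-r and from 0.92 to 1.00 in R4VPL3-1, BRD2 from 0.68 to 0.74 and from 0.81 to 0.90, and CDK9 from -0.35 to -0.26 and from -0.43 to -0.34 on the log2 scale. CCNT1 in R4VPL3-1 was also lost with no filter (adjusted p = 0.0849 by limma) and upper quartile rescaling (0.0897), and CCNT2 in VHL-r was gained in a fit of only the 6 libraries compared (0.0429). DESeq2 did not call HEXIM2 in VHL-r (0.0531), H2BC18 in VHL-r (0.0725), EAF2 in R4VPL3-1 (0.0505) or SERPINI1 in R4VPL3-1 (0.0649), and ELOA between the compounds was not called with TMM rescaling (0.0521), no filter (0.113) or only the 6 libraries compared (0.0768).

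Same-numbered libraries deviated together by correlations of -0.0056 to 0.121. Whether the numbers mark libraries handled together was not tested. With a replicate block, limma called 6 members in VHL-r against DMSO, CCNT2 being added (adjusted p = 0.045), 7 in R4VPL3-1 against DMSO and 0 between the compounds. Of all genes, the block called 3451 in VHL-r against DMSO (3016 without it) and 4241 in R4VPL3-1 against DMSO (3792 without it). Between the compounds it called 389 (285 without it). The block also called 1 gene of the 6 lists higher in R4VPL3-1 than in VHL-r, as did DESeq2 and the fit without R4VPL3-1 replicate 3.

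With each library left out in turn, the members called ranged from 5 to 6 in VHL-r against DMSO, from 5 to 6 in R4VPL3-1 against DMSO, and from 0 to 1 between the compounds, and the genes called between the compounds from 182 (without R4VPL3-1 replicate 1) to 358, with 285 in the fit of all libraries. Of all genes, 2286 to 2850 were called in VHL-r against DMSO, with 3016 in the fit of all libraries. In R4VPL3-1 against DMSO 2866 to 3813 were called, with 3792 in that fit. Small differences between the compounds changed sign: AFF4 ranged from -0.0104 (without R4VPL3-1 replicate 3; -0.0074 without VHL-r replicate 3) to 0.0579, BRD3 from -0.0142 (without R4VPL3-1 replicate 1) to 0.0843, and LARP7 from -0.0833 to 0.0086 (without R4VPL3-1 replicate 1; 0.0026 without replicate 2). The cause was not tested. Rescaling moved the median of all genes by less than 0.1.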
